A study of Drosophila melanogaster with 9 samples.

Results

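The comparison described here asks what changed in Drosophila cells already treated against 2 Polycomb genes when the corepressor gene CtBP was targeted as well. It sets 3 libraries of cells given double-stranded RNA (dsRNA) against ph, E(z) and CtBP against 3 libraries of cells given dsRNA against ph and E(z) alone, within a series of 9 libraries. Of 14797 genes in the deposited table, 8596 reached 0.5 FPKM in at least 3 of these 6 libraries, and all of them were tested. The deposited level is FPKM, the number of sequenced fragments of a gene divided by its transcript length and by the size of the library.

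The cells were Kc167, a line from Drosophila melanogaster embryos with features of fly blood cells, or hemocytes. Each culture received 15 µg of dsRNA and was harvested on day 7, and RNA was sequenced on an Illumina HiSeq instrument. The groups were control RNAi, whose dsRNA target was not given in the sources used here, ph+E(z) RNAi, and ph+E(z)+CtBP RNAi, called CtBP-added below, with 3 libraries in each. Both groups compared therefore carry the RNAi against ph and E(z), and the control libraries entered no test and are given only as levels.

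Polycomb group proteins keep developmental genes silent. Polyhomeotic, encoded by ph-p and ph-d, belongs to Polycomb repressive complex 1, and E(z) is the methyltransferase of complex 2 that marks histone H3 at lysine 27. CtBP does not bind DNA itself. It is brought to genes by DNA-binding repressors such as Hairy and by cofactors such as U-shaped, and it is best known as a corepressor, while the title of the series assigns it an activating role on HOX genes. HOX genes encode homeodomain transcription factors that give body segments their identity and are the classic targets of Polycomb silencing.

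The labels do not say whether replicates were separate cultures, so the p values measure the spread between these libraries, which may be technical. FPKM values carry no read totals, so the depth is unknown. FPKM summed to between 725406 and 783346 in the 6 libraries. The libraries of a group were not equally close: over 6039 genes, ph+E(z) replicates 2 and 3 differed by a median of 0.0673 on the log2 scale, against 0.152 and 0.161 for replicate 1 with each of them, and the CtBP-added libraries differed by 0.107 to 0.176. Among the control libraries, replicate 1 stood apart, at a median of 0.525 from each of the others, and 40.01% of its FPKM came from cytosolic ribosomal protein genes against 31.05% and 30.99% in the others. Log2 changes below are CtBP-added minus ph+E(z) RNAi on the log2(FPKM + 0.5) scale, with the standard error, and adjusted p values come from limma with Benjamini-Hochberg adjustment over the 8596 genes.

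CtBP itself was the first check. CtBP (FBgn0020496, chromosome 3R, 13011649 to 13026275, dm6) lay at 205, 221 and 219.5 FPKM in ph+E(z) libraries 1, 2 and 3 and at 49, 41.8 and 65.8 FPKM in the corresponding CtBP-added libraries. The groups did not overlap, the control libraries held 189, 202 and 205 FPKM, and the log2 change was -2.06 ± 0.16 (adjusted p = 0.00177), a call that held when each of the 6 libraries was left out in turn. E(z), targeted in both groups, lay at 12.1, 8.81 and 8.29 FPKM with ph+E(z) RNAi and at 9.85, 8.93 and 9.68 FPKM once CtBP was also targeted, against 43.4, 37.4 and 31.2 FPKM in the control libraries. Its difference was -0.02 ± 0.16, with a 95% interval of -0.39 to 0.36 (adjusted p = 0.961), so adding the third dsRNA came with no detectable return of E(z). ph-p held 7.15, 8.02 and 7.28 FPKM and then 7.22, 7.25 and 10.3 FPKM, a difference of 0.12 ± 0.16 (95% interval -0.27 to 0.50, adjusted p = 0.696). For ph-d the difference was -0.13 ± 0.16 (95% interval -0.51 to 0.25, adjusted p = 0.665), and reads of this near-identical pair may be split between the copies. The 4 target genes together summed to between 239 and 264 FPKM in the control libraries and between 228 and 243 FPKM with ph+E(z) RNAi. Most of each sum is CtBP, so the sums say nothing about ph. A lowering of ph RNA against the control libraries was not tested, and these sums cannot show it either way.

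**Figure D1:**
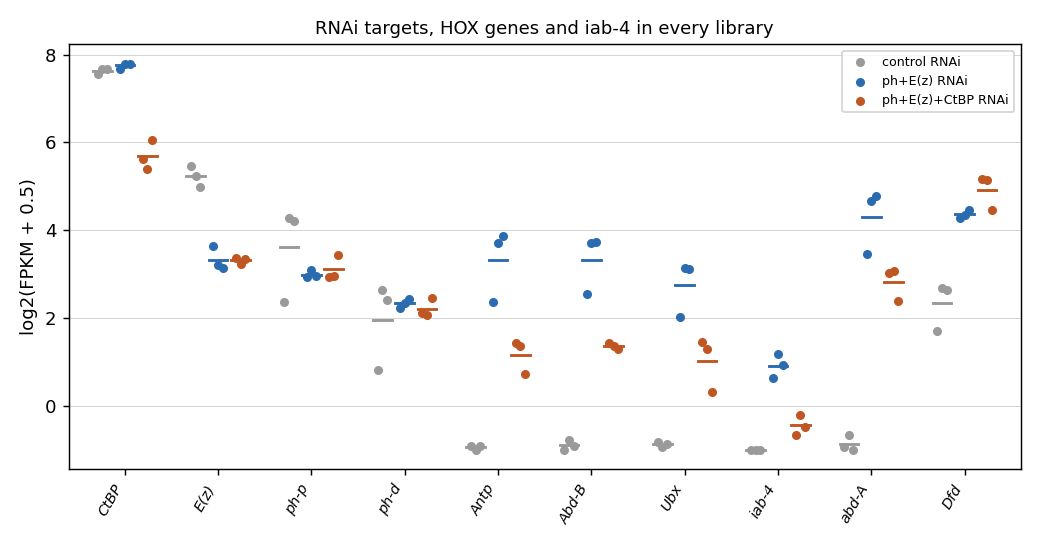
Levels of the RNAi targets, the 5 tested HOX genes and the non-coding RNA gene iab-4, as log2(FPKM + 0.5) on the vertical axis, with 1 point per library and a bar at the mean of the 3 log2 values of a group (grey, control; blue, ph+E(z) RNAi; orange, ph+E(z)+CtBP RNAi). CtBP, Antp, Abd-B, Ubx and iab-4 are lower in all 3 CtBP-added libraries than in all 3 ph+E(z) libraries, and E(z) and ph-p overlap between these groups.

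Across all genes, 428 of 8596 rose when CtBP RNAi was added (4.98%) and 391 fell (4.55%). These shares are the background for the counts given for each gene list below. In all 819 the 2 groups were fully separated, as they were in the higher direction for 15.4% and in the lower direction for 16.4% of all tested genes. A gene under 0.5 FPKM in all 3 libraries of a group could pass the filter only through the other group, where it is higher, so its direction was set by the filter. Of 39 such genes that passed through the ph+E(z) libraries 18 were called lower, and of 43 that passed through the CtBP-added libraries 9 were called higher. Most genes moved little. The change was below 0.5 on the log2 scale, in either direction, for 84.0% of genes, and the median over all genes was -0.01. Among the calls, 157 rose and 137 fell at least 2-fold, and 24 rose and 38 fell at least 4-fold. Genes with no name beyond a CG or CR number made up 195 of the higher and 191 of the lower calls.

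The balance of directions depended on the scaling. With the deposited FPKM 52.3% of calls were higher, and with every library scaled to the same FPKM total 579 genes were called higher and 284 lower. Single libraries also moved the counts. Leaving out ph+E(z) replicate 2 gave 152 higher and 106 lower, ph+E(z) replicate 3 gave 179 and 133, CtBP-added replicate 1 gave 156 and 145, and CtBP-added replicate 2 gave 182 and 143. Each such fit also has fewer libraries. Without CtBP-added replicate 3 the counts were 537 and 534, and without ph+E(z) replicate 1 they were 482 and 407. In the authors' deposited table a q-value under 0.05 for the same comparison was given to 633 genes, 362 higher and 271 lower, and 440 of them were among the 819 limma calls, which is 69.5% of the authors' genes and 53.7% of the limma calls.

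**Figure D2:**
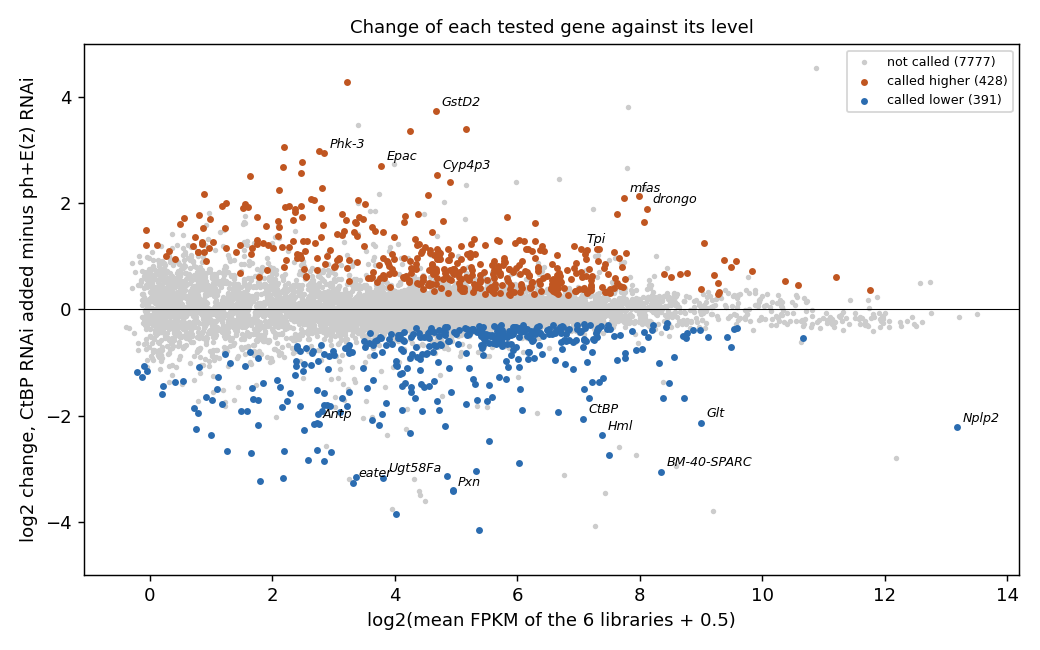
Change of each of the 8596 tested genes (vertical axis, log2 change on the log2(FPKM + 0.5) scale, CtBP-added minus ph+E(z) RNAi) against its level (horizontal axis, log2 of the mean FPKM of the 6 libraries + 0.5). Orange points are the 428 genes called higher, blue points the 391 called lower, and grey points did not pass; 4 genes lie outside the vertical range.

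The HOX genes Antp, Abd-B and Ubx fell when CtBP RNAi was added, and Dfd, on in both groups, did not. Of the 8 HOX genes, 5 passed the FPKM filter, and of these 3 fell, 0 rose and 2 were not called (median log2 change -1.73). Antp (FBgn0260642, chromosome 3R, 6896253 to 6999228), which specifies thoracic identity, lay at 4.64, 12.6 and 14.2 FPKM in the ph+E(z) libraries and at 2.19, 2.08 and 1.15 FPKM in the CtBP-added libraries, so that it fell by 2.14 ± 0.42 on the log2 scale (adjusted p = 0.0246). Abd-B (FBgn0000015, chromosome 3R, 16927212 to 16972236), which specifies the most posterior segments, lay at 5.33, 12.6 and 12.9 FPKM and then at 2.2, 2.08 and 1.95 FPKM, with a change of -1.97 ± 0.32 (adjusted p = 0.0131). Ubx (FBgn0003944, chromosome 3R, 16656623 to 16734426), which sets the identity of the haltere-bearing segment, lay at 3.55, 8.37 and 8.25 FPKM and then at 2.26, 1.97 and 0.758 FPKM, with a change of -1.73 ± 0.41 (adjusted p = 0.044). In all 3 genes the groups did not overlap, ph+E(z) replicate 1 was the lowest of its group, and the lowest CtBP-added value still lay above the control libraries, where none of them exceeded 0.0825 FPKM. abd-A (FBgn0000014, chromosome 3R, 16807214 to 16830049), at 10.5, 25 and 26.9 FPKM and then 7.72, 7.94 and 4.74 FPKM, had groups that did not overlap and a difference of -1.47 ± 0.37, but did not pass (adjusted p = 0.054). Dfd, a head HOX gene, differed in the other direction, with 18.9, 19.9 and 21.5 FPKM and then 35.7, 34.6 and 21.5 FPKM, a difference of 0.56 ± 0.19 that did not pass (adjusted p = 0.124). In bulk RNA, fewer cells with a transcript and less of it per cell cannot be told apart.

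The HOX calls rested on several libraries. Abd-B and Antp did not pass without ph+E(z) replicate 2 or 3 or CtBP-added replicate 1 or 2 (adjusted p from 0.0528 to 0.0981). Ubx missed the threshold without ph+E(z) replicate 2 or 3 or CtBP-added replicate 1, 2 or 3 (adjusted p from 0.0664 to 0.155). The count of 3 lower was therefore 0 without ph+E(z) replicate 2 or 3 or CtBP-added replicate 1 or 2. It was also 0 with ph+E(z) replicates 2 and 3 averaged into 1 library, and 1 with the replicate number as a block. With a pseudocount of 0.1, without the filter, or without the mean-variance trend, the count was 2. Ubx also missed the threshold with every library scaled to the same FPKM total (adjusted p = 0.0524). In the other direction, Dfd passed as a rise without CtBP-added replicate 3 (0.79, adjusted p = 0.00526) and with array weights, which weight libraries by their spread (0.71, adjusted p = 0.0051). The falls numbered 4 without ph+E(z) replicate 1 and with array weights.

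The non-coding neighbour of these genes, and the HOX genes below the filter, went as follows. iab-4 (FBgn0020546, chromosome 3R, 16850004 to 16856497), the gene of a non-coding RNA between abd-A and Abd-B that hosts a microRNA, was named after its values were seen. It lay at 1.06, 1.77 and 1.43 FPKM with ph+E(z) RNAi and at 0.139, 0.372 and 0.22 FPKM with CtBP RNAi added, was listed at 0 in every control library, and fell by 1.36 ± 0.26 (adjusted p = 0.0211). Since the CtBP-added libraries all lay under the filter, iab-4 was tested only through its ph+E(z) values. iab-4 did not pass without ph+E(z) replicate 2 or 3 or CtBP-added replicate 1 or 2 (adjusted p from 0.0513 to 0.105). lab, the most anterior HOX gene, lay at 0.175, 0.759 and 0.633 FPKM and then 0.259, 0.183 and 0.137 FPKM, pb at 0.0321, 0.311 and 0.31 and then 0.0954, 0.0674 and 0.0335 FPKM, and Scr at 0, 0 and 0.142 and then 0, 0 and 0 FPKM, too low to test.

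Other transcription factor genes that Polycomb silences were also mostly lower, though few passed. Of 74 such genes outside the HOX clusters in the list used here, 33 were tested, of which 0 rose, 2 fell and 31 did not pass. Their median log2 change was -0.47. Against 16.4% lower and 15.4% higher over all tested genes, 10 of the 33 had non-overlapping groups with CtBP-added lower and 0 had them higher. Several of these genes are near 0 in the control and CtBP-added libraries and reached the filter only through ph+E(z) libraries, so they could hardly have been higher, and these counts are a description. The called genes were fkh, the fork head factor of gut and salivary gland, and bi, which encodes the T-box factor Optomotor-blind. fkh (FBgn0000659, chromosome 3R, 28580976 to 28585264) lay at 86.4, 92.9 and 90.4 FPKM and then at 60.5, 63.3 and 54 FPKM, a change of -0.60 ± 0.08 (adjusted p = 0.00711) with narrow and separate groups. bi lay at 0.82, 1.73 and 2.32 FPKM and then at 0.346, 0.246 and 0.309 FPKM, a change of -1.34 ± 0.32 (adjusted p = 0.044), and passed the filter only through its ph+E(z) libraries. Closest to the threshold were the homeobox gene unpg, at 0.99, 3.09 and 3.75 and then 0.527, 0.399 and 0.477 FPKM (difference -1.55 ± 0.40, adjusted p = 0.057), and the POU factor gene pdm2, at 1.87, 2.25 and 2.54 and then 1.2, 1.03 and 0.549 FPKM (difference -0.95 ± 0.25, adjusted p = 0.0579). The zinc finger gene disco-r (difference -1.43 ± 0.40, adjusted p = 0.0699) and the LIM homeobox gene Lim1 (difference -1.33 ± 0.37, adjusted p = 0.0726), both named after their values were seen, followed. bi did not pass without ph+E(z) replicate 2 or 3 or CtBP-added replicate 1, 2 or 3 (adjusted p from 0.0709 to 0.16). Without ph+E(z) replicate 1, the lowest of its group for fkh, bi, unpg and pdm2, the count of lower calls was 10.

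Among developmental regulators outside that list, Optix and sens-2 were in the 15 largest falls. Optix, a Six-type homeobox gene of the eye and wing, went from 2.93, 10.8 and 16.8 FPKM to 0.935, 0.946 and 0.395 FPKM (change -2.83 ± 0.57, adjusted p = 0.0275), and sens-2, a zinc finger gene, from 1.14, 6.87 and 7.32 FPKM to 0.176, 0.149 and 0.26 FPKM (change -2.72 ± 0.59, adjusted p = 0.0336). The groups are apart in both, while the ph+E(z) values themselves spread widely, with replicate 1 far below replicates 2 and 3. sens-2, like vg below, passed the filter only through its ph+E(z) libraries, so these falls are a description. The wing selector gene vg (change -1.71 ± 0.37, adjusted p = 0.0345), the ARID factor gene retn (change -1.91 ± 0.45, adjusted p = 0.0425) and the Iroquois homeobox gene mirr (change -0.85 ± 0.15, adjusted p = 0.0171) fell too and were named after their values were seen. The odd-skipped family gene bowl moved the other way, from 5.64, 5.5 and 6.12 to 20.8, 19.8 and 13.6 FPKM (change 1.55 ± 0.17, adjusted p = 0.00369). Optix, retn, sens-2 and vg did not pass without ph+E(z) replicate 2 or 3 or CtBP-added replicate 1, 2 or 3 (adjusted p from 0.0567 to 0.153). mirr missed the threshold without ph+E(z) replicate 2 or CtBP-added replicate 1 or 2 (adjusted p from 0.0641 to 0.0762).

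Many genes of phagocytic blood cells fell. Of 20 Nimrod and scavenger receptor genes 17 were tested, of which 10 fell, 1 rose and 6 were not called (median log2 change -1.66). Over all tested genes 4.55% fell and 4.98% rose. The falls include nimB1, nimB2 and nimB3, whose direction was set by the filter. Nimrod proteins carry a characteristic EGF-like repeat, and several of them, like the class C scavenger receptors, bind microbes at the hemocyte surface. nimB4 (FBgn0028542, chromosome 2L, 13968280 to 13969976), a secreted Nimrod protein, lay at 33.7, 68.3 and 66.6 FPKM with ph+E(z) RNAi and at 4.29, 5.2 and 4.35 FPKM with CtBP RNAi added, a change of -3.41 ± 0.27 (adjusted p = 0.00182). eater (FBgn0243514, chromosome 3R, 27095867 to 27099679), the receptor for bacterial phagocytosis, went from 12.2, 20.5 and 20.3 to 1.39, 1.28 and 1.35 FPKM (change -3.26 ± 0.22, adjusted p = 0.00141). nimC1, the plasmatocyte antigen P1, went from 7.85, 14 and 14.6 to 1.33, 1.16 and 1.09 FPKM (change -2.86 ± 0.25, adjusted p = 0.00194). All 3 CtBP-added libraries lay close together for these genes and far below the lowest ph+E(z) library.

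The abundant surface glycoprotein gene He (hemese) went from 589, 673 and 650.4 FPKM to 182, 204 and 218 FPKM, a change of -1.66 ± 0.09 (adjusted p = 0.000614), also below the control libraries at 405, 291 and 262 FPKM. nimB5, which encodes a secreted regulator of hemocyte number and growth, went from 66.7, 83.8 and 85.5 to 14.4, 13.9 and 12.5 FPKM (change -2.48 ± 0.12, adjusted p = 0.000448), and the scavenger receptor gene Sr-CI from 6.77, 13.2 and 12.9 to 1.03, 1.42 and 1.35 FPKM (change -2.65 ± 0.27, adjusted p = 0.00306). nimB3, listed at 0 in the control libraries, went from 4.17, 4.47 and 2.24 to 0, 0 and 0.483 FPKM (change -2.67 ± 0.37, adjusted p = 0.00739). The calls of these 7 genes held when each of the 6 libraries was left out in turn. The remaining falls were Sr-CIV (-1.81), nimB1 (-1.86) and nimB2 (-1.17), with adjusted p values of 0.00194, 0.00771 and 0.0405. Sr-CII was the member that rose, from 1.27, 1.11 and 1.11 to 3.23, 4 and 2.15 FPKM (change 1.09 ± 0.23, adjusted p = 0.0332), named like these 3 after its values were seen. Of the 10 falls, those of nimB1, nimB2 and nimB3 are of genes that passed the filter only through the ph+E(z) libraries, and the other 7 are not. Sr-CII and nimB2 did not pass without ph+E(z) replicate 1, 2 or 3 or CtBP-added replicate 1 or 2 (adjusted p from 0.0532 to 0.149).

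The phagocytosis receptors of other families did not pass. crq (Croquemort, of the CD36 family) lay at 42.7, 45.8 and 43.8 and then 49.2, 53.2 and 32.4 FPKM (difference -0.004 ± 0.18, 95% interval -0.43 to 0.42, adjusted p = 0.992), drpr (Draper) at 92.8, 123 and 128 and then 133, 138 and 82.3 FPKM (difference 0.01 ± 0.22, adjusted p = 0.976) and pes, another CD36 family gene, at 59.2, 63.6 and 63.7 and then 68.1, 61.9 and 59.7 FPKM (difference 0.02 ± 0.08, adjusted p = 0.885). These 3 were named after their values were seen.

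The Nimrod genes nimB1 to nimB5 and nimC1, which fell, lie in a cluster on chromosome 2L, while eater, which also fell, lies on 3R. Genes called in the same direction, with no other tested gene between them, formed 34 runs with 78 genes in the lower and 38 runs with 81 genes in the higher direction. The longest run held 8 genes, nimB1, nimB2, nimB3, nimB4, nimB5, He, nimC1 and Cyp28a5, on chromosome 2L between 13963507 and 13979569 (dm6). Of these, nimB1, nimB2 and nimB3 passed the filter only through their ph+E(z) libraries. The last of them, a cytochrome P450 gene, went from 7.84, 16.1 and 18.4 to 3.41, 3.39 and 3.45 FPKM (change -1.82 ± 0.30, adjusted p = 0.0131). Cyp28a5 did not pass without ph+E(z) replicate 2 or CtBP-added replicate 1 or 2 (adjusted p from 0.0561 to 0.0596). Without a statement on strand, reads of genes that overlap here cannot be told apart.

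Proteins that hemocytes secrete fell with the receptors. Of 7 tested secreted hemocyte genes 6 fell, 0 rose and 1 was not called (median log2 change -2.14). Nplp2, the most abundant of them, lay at 9149, 18303 and 18688 FPKM in the ph+E(z) libraries, that is 1.17% to 2.42% of the summed FPKM, and at 3490.1, 3992 and 2232 FPKM in the CtBP-added libraries, 0.297% to 0.541%. It fell by 2.22 ± 0.33 (adjusted p = 0.00963) and stayed above the control libraries, at 1754, 1043 and 1124 FPKM. Hml (FBgn0029167, chromosome 3L, 13846054 to 13860001), the clotting protein hemolectin and a standard hemocyte marker, went from 219.6, 300.3 and 312 to 47.7, 39.9 and 76.2 FPKM (change -2.37 ± 0.25, adjusted p = 0.00306). Glt, which encodes the adhesion protein glutactin, went from 578, 932 and 985 to 149, 178 and 234 FPKM (change -2.14 ± 0.24, adjusted p = 0.00369), and Tig, the integrin ligand tiggrin, from 40.6, 73.3 and 71.7 to 16.3, 14.1 and 25.4 FPKM (change -1.70 ± 0.29, adjusted p = 0.0147). Pxn and Ppn, described next, belong to this list too. Tig did not pass without ph+E(z) replicate 2 or 3 or CtBP-added replicate 1 or 2 (adjusted p from 0.059 to 0.0689).

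Basement membrane genes, whose products hemocytes lay down as extracellular matrix, fell as well. Of 13 in the list 11 were tested, of which 7 fell, 1 rose and 3 were not called (median log2 change -1.36). Pxn (FBgn0011828, chromosome 3L, 2601455 to 2630064), the matrix peroxidase peroxidasin, lay at 60.3, 51 and 53.7 FPKM and then at 3.31, 2.8 and 10.4 FPKM, a change of -3.42 ± 0.42 (adjusted p = 0.00483), and BM-40-SPARC (SPARC, FBgn0026562, chromosome 3R, 26869238 to 26871995), a collagen-binding glycoprotein, at 541, 601 and 583 and then 54.8, 54 and 108 FPKM, a change of -3.06 ± 0.26 (adjusted p = 0.00188). In both genes the CtBP-added libraries also lay far below the control libraries, at 44.5, 40.6 and 39.5 FPKM for Pxn and 575, 441 and 451 FPKM for BM-40-SPARC, and CtBP-added replicate 3 was the highest of its group. The neighbouring type IV collagen genes were also lowest in the CtBP-added libraries, but were highest in the control libraries. Cg25C (Col4a1) went from 46.5, 27.6 and 27.3 to 6.82, 6.95 and 12.2 FPKM (change -1.91 ± 0.28, adjusted p = 0.0096) and vkg from 32.4, 17.7 and 14.2 to 2.88, 3.21 and 7.16 FPKM (change -2.17 ± 0.40, adjusted p = 0.0191), with 81.4, 83.6 and 77.8 and 54.2, 67.4 and 63.4 FPKM in the control libraries. Both lie on chromosome 2L, between 5012144 and 5037279, and are transcribed away from each other.

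The papilin gene Ppn went from 168, 237 and 238 to 74.3, 66.7 and 108 FPKM (change -1.38 ± 0.21, adjusted p = 0.0103), the laminin gene LanB1 from 279.9, 321 and 325 to 181, 171 and 193 FPKM (change -0.76 ± 0.09, adjusted p = 0.00369) and the perlecan gene trol from 1.44, 3.11 and 3.17 to 0.604, 0.728 and 0.852 FPKM (change -1.27 ± 0.29, adjusted p = 0.0411). The other laminin chains were lower without passing, LanA with a difference of -1.36 ± 0.39 (adjusted p = 0.0781) and LanB2 of -0.49 ± 0.13 (adjusted p = 0.065), both named after their values were seen. mp, the multiplexin collagen gene, rose from 0.853, 0.271 and 0.242 to 3.48, 3.43 and 2.35 FPKM (change 1.95 ± 0.30, adjusted p = 0.0107). The called count of 7 was 4 without ph+E(z) replicate 2 or CtBP-added replicate 1. Ppn did not pass without ph+E(z) replicate 2 or CtBP-added replicate 1 (adjusted p from 0.0502 to 0.0521). mp and vkg missed the threshold without ph+E(z) replicate 2 or CtBP-added replicate 1 or 2 (adjusted p from 0.0502 to 0.079). trol lost its call without ph+E(z) replicate 2 or 3 or CtBP-added replicate 1, 2 or 3 (adjusted p from 0.0557 to 0.155).

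**Figure D3:**
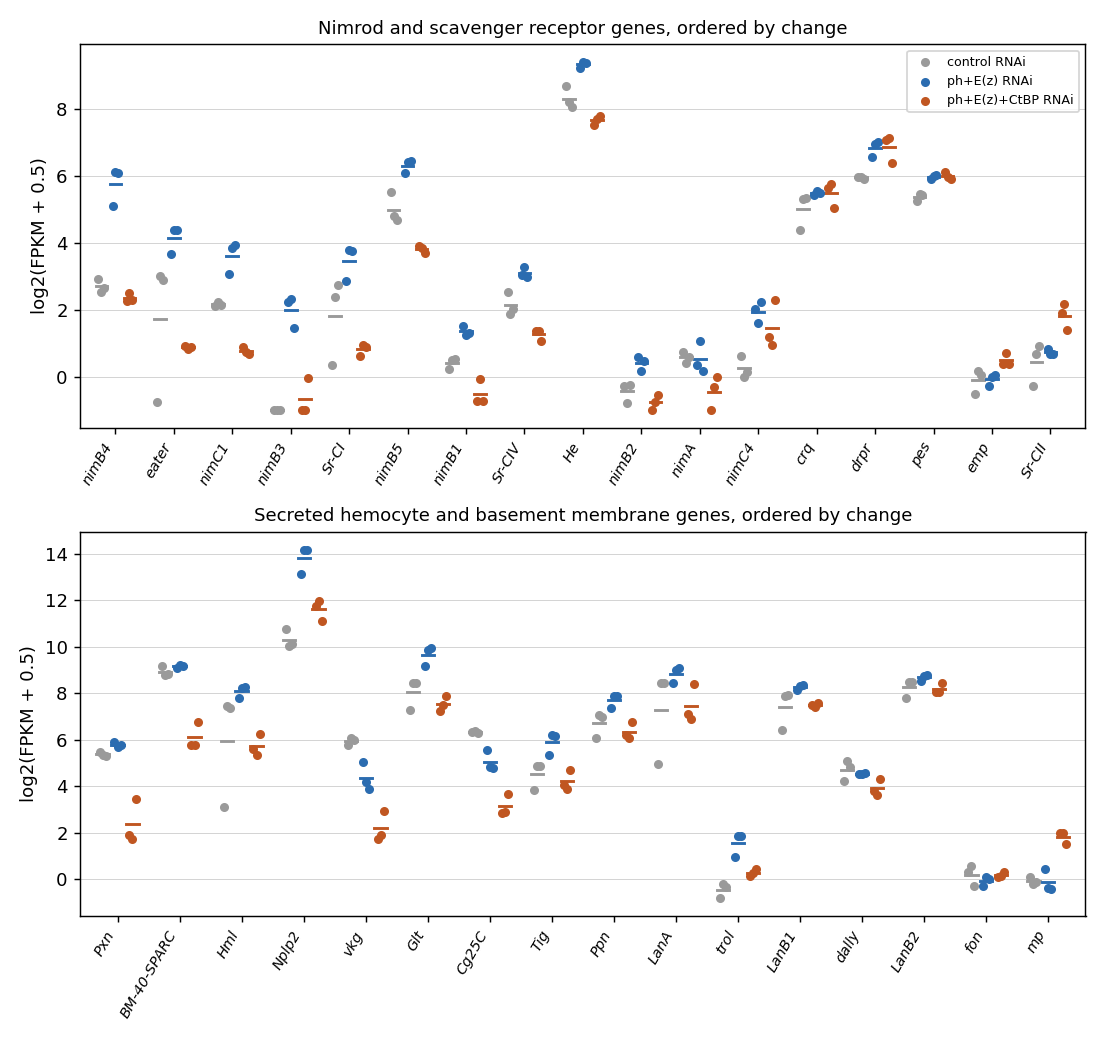
Levels of the tested Nimrod and scavenger receptor genes (top) and of the secreted hemocyte and basement membrane genes (bottom), as log2(FPKM + 0.5), 1 point per library with a bar at the mean of the 3 log2 values of a group, genes ordered by change from the most lowered. On the left of each panel the 3 CtBP-added libraries (orange) lie below the 3 ph+E(z) libraries (blue), and crq, drpr and pes overlap between the groups.

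Part of the machinery that folds secreted proteins was lower by a smaller amount. Of 25 tested genes for chaperones of the endoplasmic reticulum and collagen processing 5 fell, 0 rose and 20 were not called (median log2 change -0.08). The protein disulfide isomerase gene Pdi went from 469, 518 and 548 to 352, 347 and 353 FPKM (change -0.54 ± 0.08, adjusted p = 0.00771), the calreticulin gene Crc from 843, 788 and 792 to 546, 558 and 575 FPKM (change -0.53 ± 0.07, adjusted p = 0.0051) and Hsc70-3, the luminal Hsp70 known as BiP, from 499, 484 and 482 to 317, 345 and 374 FPKM (change -0.50 ± 0.08, adjusted p = 0.011). ERp60 (-0.52, adjusted p = 0.00506) and CG1837 (prtp, -0.40, adjusted p = 0.0306), both disulfide isomerase relatives, fell as well. The count of 5 was 2 with ph+E(z) replicate 2 left out and 3 with ph+E(z) replicate 3 left out. CG1837 did not pass without ph+E(z) replicate 1, 2 or 3 or CtBP-added replicate 1 or 2 (adjusted p from 0.0575 to 0.128). Hsc70-3 missed the threshold without ph+E(z) replicate 2 or 3 (adjusted p from 0.0527 to 0.0572). Pdi lost its call without ph+E(z) replicate 2 (adjusted p = 0.0502).

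Other large falls outside the lists included enzymes, membrane proteins and peptides. TM4SF, a tetraspanin gene, went from 73.7, 67.6 and 65.8 to 4.58, 5.15 and 20 FPKM (change -3.05 ± 0.49, adjusted p = 0.0126), with CtBP-added replicate 3 well above its group. The glycosyltransferase gene Ugt58Fa (Ugt317A1) went from 14.5, 28.8 and 30.9 to 1.73, 2.74 and 2.13 FPKM (change -3.17 ± 0.30, adjusted p = 0.00258), and mthl2, a Methuselah-like receptor gene, from 3.38, 1.78 and 1.72 to 0.0607, 0.0644 and 0.0641 FPKM (change -2.26 ± 0.28, adjusted p = 0.00503), although mthl2 passed the filter only through its ph+E(z) libraries. The following were named after their values were seen. CG30463 (Pgant9), which encodes an enzyme that starts mucin-type glycosylation, went from 57.5, 86.3 and 88.8 to 3.36, 2.41 and 6.55 FPKM (change -4.16 ± 0.33, adjusted p = 0.00182), and CG13936 (CNMa), a neuropeptide gene, from 51.7, 132 and 161 to 17.5, 15.3 and 9.23 FPKM (change -2.89 ± 0.44, adjusted p = 0.00993). In the control libraries CG13936 was at 0.474, 0.609 and 0.616 FPKM. Pepck, the rate-limiting enzyme of gluconeogenesis, went from 21.1, 57.4 and 60.8 to 7.65, 8.98 and 9.72 FPKM (change -2.20 ± 0.38, adjusted p = 0.0163).

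Among further falls named after their values were seen were Corin (change -2.16 ± 0.47, adjusted p = 0.0337), the protein kinase D gene PKD (change -2.08 ± 0.38, adjusted p = 0.0197), fat-spondin (change -1.90 ± 0.14, adjusted p = 0.00164) and the uncharacterised CG13737, CG34437 and CG4829 (changes -3.86, -3.14 and -2.75). The neprilysin-like peptidase genes CG14523, CG14527 and CG14526 (Nepl19, Nepl20 and Nepl21), which lie next to each other on 3R, fell by 1.72, 1.51 and 1.91. The transfer RNA gene tRNA:CR32303 was listed at 318, 307 and 923 FPKM in the ph+E(z) libraries, at 284, 303 and 920.4 FPKM in the control libraries and at 0 in all 3 CtBP-added libraries. It passed the filter only through its ph+E(z) libraries, so its direction was set by the filter and these levels are a description. FPKM divides by transcript length, so for so short a gene a high FPKM can stand for very few fragments. Read totals were not given, so the difference from 0 may be one of a few fragments. Corin did not pass without ph+E(z) replicate 1, 2 or 3 or CtBP-added replicate 1 or 2 (adjusted p from 0.0621 to 0.121). PKD and Pepck missed the threshold without ph+E(z) replicate 2 or 3 or CtBP-added replicate 1 or 2 (adjusted p from 0.0565 to 0.0827). TM4SF lost its call without ph+E(z) replicate 2 or CtBP-added replicate 1 or 2 (adjusted p from 0.0504 to 0.0546).

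In 2 stress and cytokine pathways more genes rose than fell, while most members did not pass. In the JAK-STAT list, 4 of 14 tested genes rose, 1 fell and 9 were not called (median log2 change 0.21). They span the pathway, from ligand to feedback inhibitor. upd3, a cytokine ligand, went from 21.1, 14.2 and 13.5 to 35.4, 33 and 36.4 FPKM (change 1.11 ± 0.17, adjusted p = 0.0105), its receptor gene dome from 19.9, 18.1 and 18.2 to 32.1, 30.1 and 31.7 FPKM (change 0.73 ± 0.08, adjusted p = 0.00408), the transcription factor gene Stat92E from 144, 137 and 144 to 189, 186 and 194 FPKM (change 0.42 ± 0.06, adjusted p = 0.0083), and the target and inhibitor Socs36E (FBgn0041184, chromosome 2L, 18138675 to 18152417) from 51.1, 33.2 and 31.1 to 125, 117 and 110.1 FPKM (change 1.63 ± 0.18, adjusted p = 0.00369). CG14225 (et, eye transformer), a receptor-like inhibitor of the pathway, fell from 45.7, 63.6 and 62.5 to 17.9, 21.1 and 25.2 FPKM (change -1.40 ± 0.17, adjusted p = 0.00483). The 4 higher calls were 2 without ph+E(z) replicate 2, and the 1 lower call was 2 without ph+E(z) replicate 1 or CtBP-added replicate 3. Stat92E did not pass without ph+E(z) replicate 2 (adjusted p = 0.0585). upd3 missed the threshold without ph+E(z) replicate 2 or CtBP-added replicate 1 (adjusted p from 0.0502 to 0.0521).

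In the JNK list, 5 of 15 tested genes rose, 0 fell and 10 were not called (median log2 change 0.08). msn (Misshapen, FBgn0010909, chromosome 3L, 2554847 to 2586540), the upstream kinase, went from 141, 133 and 134 to 286, 278 and 244 FPKM (change 0.98 ± 0.08, adjusted p = 0.00188). puc, the phosphatase gene that JNK signalling induces, went from 81.2, 100.3 and 103 to 162, 168 and 131 FPKM (change 0.69 ± 0.13, adjusted p = 0.0207) and the Fos gene kay from 128, 125 and 124 to 159, 155 and 167 FPKM (change 0.35 ± 0.06, adjusted p = 0.0176). The matrix metalloproteinase genes Mmp1, at 64, 57.8 and 53.7 and then 112, 106 and 85 FPKM (change 0.78 ± 0.12, adjusted p = 0.0112), and Mmp2 (change 0.86 ± 0.19, adjusted p = 0.0362) also rose. The ligand gene egr did not pass, at 34.6, 41.9 and 50.9 and then 25.1, 27.9 and 16.2 FPKM (difference -0.88 ± 0.22, adjusted p = 0.0547). The count of 5 was 1 without ph+E(z) replicate 2 or 3 or CtBP-added replicate 1 or 2, and 1 gene was called lower without ph+E(z) replicate 1. Mmp1, Mmp2, kay and puc did not pass without ph+E(z) replicate 2 or 3 or CtBP-added replicate 1 or 2 (adjusted p from 0.0504 to 0.134).

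Markers of the other blood cell types overlapped with those genes. Of 14 tested crystal cell and lamellocyte markers 4 rose, 1 fell and 9 were not called (median log2 change 0.24). The 4 were msn, puc and Mmp1, already counted in the JNK list, and Gs1, a glutamine synthetase gene, at 73.3, 62.1 and 60.2 and then 129, 116 and 157 FPKM (change 1.03 ± 0.13, adjusted p = 0.00531). CG42640 (PPO3), the prophenoloxidase of lamellocytes, fell from 18.9, 18.6 and 18.9 to 14.2, 13.2 and 12.8 FPKM (change -0.48 ± 0.09, adjusted p = 0.0216), and the crystal cell factor gene lz was low, at 1.17, 1.84 and 2.07 and then 2.34, 1.54 and 1.86 FPKM. Too low to test were CG8193 (PPO2), proPO-A1 (PPO1) and Tsf1. Their means were 0.701, 0.322 and 0.514 FPKM with ph+E(z) RNAi and 0.112, 0.052 and 0.362 FPKM with CtBP RNAi added. The count of 4 was 2 without ph+E(z) replicate 2 or 3 or CtBP-added replicate 1 or 2. CG42640, Mmp1 and puc did not pass without ph+E(z) replicate 2 or 3 or CtBP-added replicate 1 or 2 (adjusted p from 0.0504 to 0.101).

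Among the genes of GATA transcription factors, srp, the master gene of hemocytes, lay at 175, 198 and 206 and then 194, 176 and 182 FPKM (difference -0.07 ± 0.08, 95% interval -0.26 to 0.13, adjusted p = 0.665). pnr lay at 36.5, 45.1 and 46.8 and then 36.8, 29.6 and 24.8 FPKM (difference -0.50 ± 0.16, adjusted p = 0.11) and GATAd at 33.2, 37.3 and 34.7 and then 33.5, 36.6 and 36.2 FPKM (difference 0.01 ± 0.08, adjusted p = 0.931). Their cofactor ush (U-shaped), which also binds CtBP, rose from 108, 128 and 134 to 176, 176 and 158 FPKM (change 0.47 ± 0.10, adjusted p = 0.0332), so 1 of these 4 tested genes was called. ush did not pass without ph+E(z) replicate 2 or 3 or CtBP-added replicate 1 or 2 (adjusted p from 0.059 to 0.12).

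Calls among immune pathway genes were about as frequent as among all tested genes, of which 9.53% were called in either direction. Of 32 tested, 1 rose, 2 fell and 29 were not called (median log2 change 0.10). spz, the ligand of the Toll receptor, fell from 208, 239 and 246 to 83.9, 81.3 and 104 FPKM (change -1.37 ± 0.11, adjusted p = 0.00188) and GNBP3, which recognises fungal glucan, from 22.1, 22.7 and 19 to 11.2, 8.71 and 10.4 FPKM (change -1.04 ± 0.13, adjusted p = 0.00496). PGRP-LB, an amidase that degrades peptidoglycan, rose from 1.01, 0.616 and 0.483 to 4.04, 3.28 and 4.74 FPKM (change 1.92 ± 0.24, adjusted p = 0.00483). Antimicrobial peptide genes lay below the filter or did not pass. Among those that did not pass were Drs at 35.9, 27.8 and 25.3 and then 15.5, 28.7 and 23.9 FPKM (adjusted p = 0.331), Dro (adjusted p = 0.196) and Def (adjusted p = 0.166), named after their values were seen. Without CtBP-added replicate 3 there were 3 higher calls. The calls of spz, GNBP3 and PGRP-LB held when each of the 6 libraries was left out.

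Outside that list, several genes of innate defence rose and were named after their values were seen. The neighbours CG16713 and CG16712 (IM33) rose from 1.85, 0 and 0 to 22.8, 18.4 and 9.63 FPKM (change 4.30 ± 0.64, adjusted p = 0.00955) and from 2.13, 0.685 and 0 to 7.02, 5.95 and 8.15 FPKM (change 2.69 ± 0.55, adjusted p = 0.0284). Sp7, a serine protease gene of the melanisation cascade, rose from 3.41, 4.8 and 4.43 to 19, 20.6 and 8.99 FPKM (change 1.75 ± 0.31, adjusted p = 0.0173), and dnr1, an inhibitor of the Imd pathway, from 6.68, 6.35 and 5.67 to 19.9, 19.4 and 15.4 FPKM (change 1.47 ± 0.14, adjusted p = 0.00241). Tollo, a Toll family receptor gene among the 15 largest rises, went from 4.4, 2.96 and 2.9 to 15, 13.5 and 10.8 FPKM (change 1.81 ± 0.20, adjusted p = 0.00343). CG16712 did not pass without ph+E(z) replicate 2 or CtBP-added replicate 1, 2 or 3 (adjusted p from 0.0584 to 0.0999). Sp7 missed the threshold without ph+E(z) replicate 2 or 3 or CtBP-added replicate 1 or 2 (adjusted p from 0.057 to 0.0762).

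Glycolysis was the list with the largest share of rises. Of 16 tested genes 11 rose, 1 fell and 4 were not called (median log2 change 0.63). The genes that rose are given in pathway order, from uptake to pyruvate, and the 4 not called are left out. Glut1, a glucose transporter, went from 0.686, 1.23 and 0.974 to 2.63, 3.23 and 2.42 FPKM (change 1.16 ± 0.22, adjusted p = 0.0211). Hexokinase (Hex-A, 0.58) and phosphoglucose isomerase (Pgi, 0.59) rose, and Pfk, the committed step, went from 10.3, 9.14 and 9.22 to 18.5, 16.3 and 20.9 FPKM (change 0.92 ± 0.12, adjusted p = 0.00663). Triose phosphate isomerase, Tpi (FBgn0086355, chromosome 3R, 30132981 to 30134599), went from 101, 71.8 and 73.1 to 177, 162 and 203 FPKM (change 1.15 ± 0.15, adjusted p = 0.00619). The glyceraldehyde phosphate dehydrogenase genes Gapdh1, from 124, 109.9 and 117 to 176, 169 and 197 FPKM (change 0.62 ± 0.08, adjusted p = 0.00678), and Gapdh2 (change 0.69 ± 0.17, adjusted p = 0.0483) are also common reference genes, and near-identical stretches may be split between them.

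Further down the pathway Pgk (0.56), Pglym78 (0.55), Eno (0.63) and PyK (0.41) rose, with adjusted p values of 0.017, 0.0105, 0.0144 and 0.0281. Hex-A and Pgi had adjusted p values of 0.0156 and 0.0425. Gpdh, which diverts triose to glycerol 3-phosphate, fell from 34.4, 32.5 and 31.1 to 23.4, 21.5 and 16.8 FPKM (change -0.67 ± 0.13, adjusted p = 0.0256). In the control libraries Tpi lay at 329, 121 and 129.7 FPKM and Gapdh1 at 332, 177 and 175 FPKM, with replicate 1 the highest. The 11 higher calls were 3 without ph+E(z) replicate 2 or 3, 4 without CtBP-added replicate 1 and 6 without CtBP-added replicate 2. Tpi, Pfk and Gapdh1 passed in every fit with a library left out. Eno, Gapdh2, Glut1, Hex-A, Pgi, Pgk and PyK did not pass without CtBP-added replicate 1 (adjusted p from 0.0501 to 0.105). Gapdh2, Glut1, Gpdh, Pgi, Pgk and PyK missed the threshold without CtBP-added replicate 2 (adjusted p from 0.0655 to 0.0864). Gapdh2 lost its call without CtBP-added replicate 3 (adjusted p = 0.0648). Gpdh and Pgi did not pass without ph+E(z) replicate 1 (adjusted p from 0.0505 to 0.0567). Eno, Gapdh2, Glut1, Gpdh, Hex-A, Pgi, Pgk, Pglym78 and PyK missed the threshold without ph+E(z) replicate 2 or 3 (adjusted p from 0.0511 to 0.164).

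**Figure D4:**
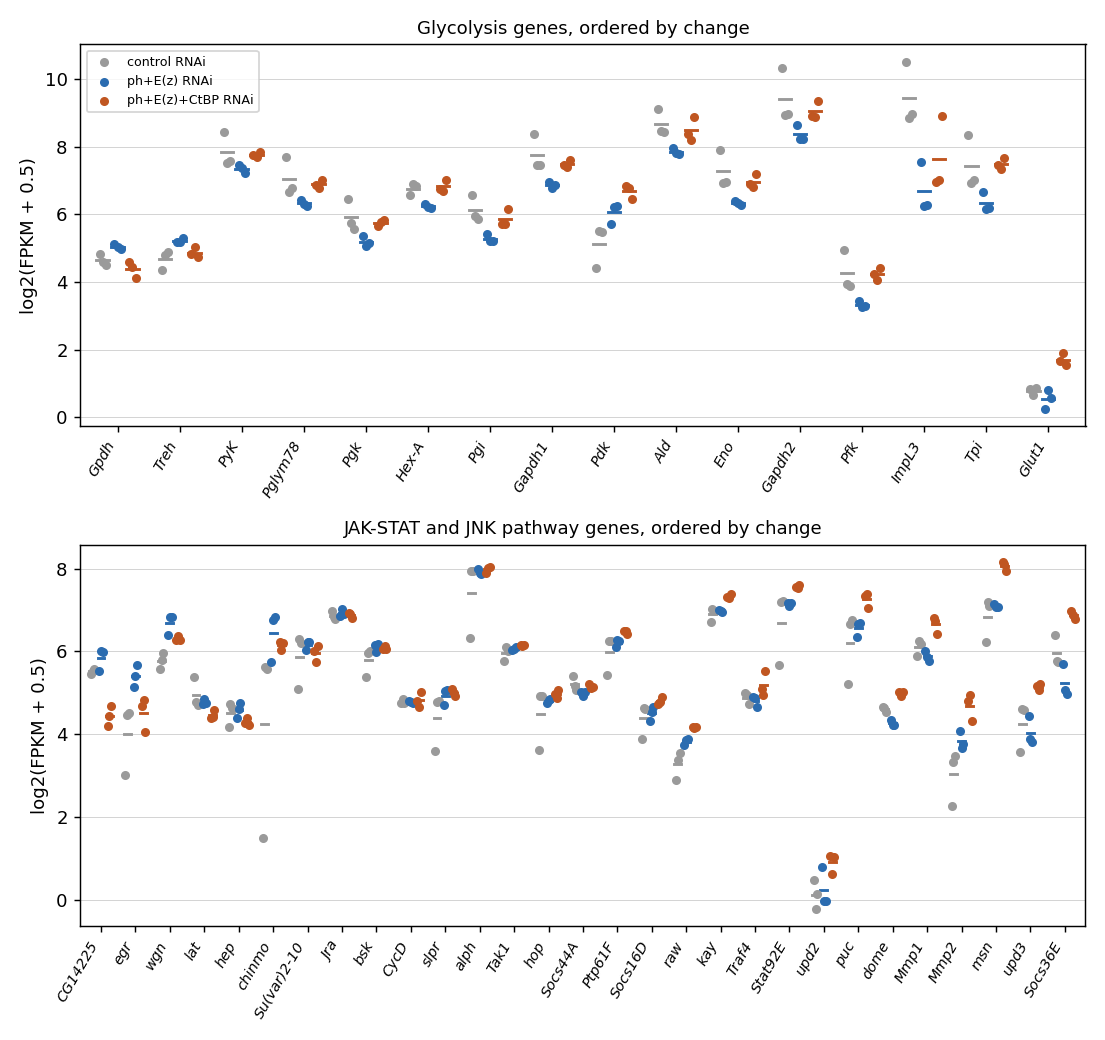
Levels of the tested glycolysis genes (top) and of the JAK-STAT and JNK pathway genes (bottom), as log2(FPKM + 0.5), 1 point per library with a bar at the mean of the 3 log2 values of a group, genes ordered by change. Most glycolysis genes lie higher in the 3 CtBP-added libraries (orange) than in the 3 ph+E(z) libraries (blue), and Socs36E, upd3 and msn are at the right of the lower panel.

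Insulin and TOR signalling, which links nutrients to growth, had 6 of 23 tested genes higher, 0 lower and 17 not called (median log2 change 0.15). Thor (FBgn0261560, chromosome 2L, 3478434 to 3479612), the translation repressor 4E-BP, went from 136, 143 and 142 to 312, 304 and 265 FPKM (change 1.06 ± 0.08, adjusted p = 0.00179). The insulin receptor gene InR went from 22.8, 30.2 and 32.1 to 51.4, 48.3 and 42.8 FPKM (change 0.74 ± 0.14, adjusted p = 0.0233) and ImpL2, which encodes a secreted insulin-binding inhibitor, from 93.9, 113 and 109 to 175, 144 and 228 FPKM (change 0.77 ± 0.17, adjusted p = 0.0346). Pi3K21B (0.65), the regulatory subunit of the lipid kinase, scyl (0.50), a TOR inhibitor, and S6k (0.38), a TOR effector kinase, rose too. The genes that rose thus include both activators and inhibitors of the pathway. The 6 calls were 1 without ph+E(z) replicate 2, 2 without CtBP-added replicate 1 and 3 without ph+E(z) replicate 3 or CtBP-added replicate 2, and 1 gene was called lower without CtBP-added replicate 3. ImpL2 did not pass without ph+E(z) replicate 1, 2 or 3 or CtBP-added replicate 1 (adjusted p from 0.0758 to 0.108). InR missed the threshold without ph+E(z) replicate 2 or CtBP-added replicate 1 or 2 (adjusted p from 0.0676 to 0.0943). Pi3K21B lost its call without ph+E(z) replicate 2 or 3 or CtBP-added replicate 1 (adjusted p from 0.0591 to 0.068). S6k did not pass without ph+E(z) replicate 2 or 3 or CtBP-added replicate 1 or 2 (adjusted p from 0.062 to 0.0942). scyl missed the threshold without ph+E(z) replicate 2 or CtBP-added replicate 2 (adjusted p from 0.0534 to 0.0616).

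In lipid metabolism 4 of 25 tested genes rose, 1 fell and 20 were not called (median log2 change 0.03). LpR2, a lipoprotein receptor gene, went from 5.81, 4.61 and 4.24 to 14.1, 12.7 and 15.8 FPKM (change 1.46 ± 0.15, adjusted p = 0.00306), the lipase gene Lip4 from 16.9, 11.1 and 11.9 to 34.9, 32.7 and 24.4 FPKM (change 1.18 ± 0.20, adjusted p = 0.0138) and CPTI (whd), the carnitine transferase of fatty acid oxidation, from 8.24, 10.2 and 7.88 to 21.9, 20.3 and 12.2 FPKM (change 0.97 ± 0.23, adjusted p = 0.0438). CG8709 (Lpin, lipin) rose by 0.56 ± 0.12 (adjusted p = 0.0332). The sterol transfer gene Npc2a fell by 0.43 ± 0.09 (adjusted p = 0.0272) while its relative Npc2b, among the 15 largest rises, went from 8.29, 5.74 and 8.36 to 49.5, 47.3 and 17.5 FPKM (change 2.16 ± 0.39, adjusted p = 0.0187). Glycogenin, which primes glycogen synthesis, rose by 1.30 ± 0.23 (adjusted p = 0.0173) and sug (sugarbabe), a sugar-responsive zinc finger gene, by 1.15 ± 0.16 (adjusted p = 0.00771), both named after their values were seen. The count of 4 was 1 without ph+E(z) replicate 2 or 3 or CtBP-added replicate 1 or 2, and it was 2 with ph+E(z) replicate 1 left out, while the 1 lower call was 3 without CtBP-added replicate 3. CG8709 and CPTI did not pass without ph+E(z) replicate 1, 2 or 3 or CtBP-added replicate 1 or 2 (adjusted p from 0.0597 to 0.149). Glycogenin missed the threshold without ph+E(z) replicate 2 or 3 (adjusted p from 0.0687 to 0.0752). Lip4 and Npc2b lost their calls without ph+E(z) replicate 2 or 3 or CtBP-added replicate 1 or 2 (adjusted p from 0.0581 to 0.0779). Npc2a did not pass without ph+E(z) replicate 1, 2 or 3 or CtBP-added replicate 2 (adjusted p from 0.0529 to 0.109).

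Detoxification genes moved in both directions. Of 30 tested glutathione and UDP-glycosyl transferase genes 4 rose, 2 fell and 24 were not called (median log2 change 0.34). GstD2 (FBgn0010038, chromosome 3R, 12371971 to 12372704), a delta class glutathione transferase gene, showed the largest rise among genes with a name, from 4.04, 1.44 and 4.31 to 54.4, 47 and 38.4 FPKM (change 3.74 ± 0.35, adjusted p = 0.00241). Its neighbours GstD9, from 123, 80.5 and 67.4 to 195, 172 and 205 FPKM (change 1.12 ± 0.21, adjusted p = 0.0211), and GstD1, from 541, 527 and 504 to 973, 949.6 and 817 FPKM (change 0.80 ± 0.09, adjusted p = 0.00343), formed a run with it on chromosome 3R between 12366163 and 12372704. GstD10 (difference 1.23 ± 0.31, adjusted p = 0.0534) and GstD5 (difference 1.04 ± 0.35, adjusted p = 0.116), named after their values were seen, did not pass. These genes are close copies, so reads may be split between them. Ugt36Ba (Ugt37C2) rose from 5.18, 2.94 and 2.87 to 17.3, 18.5 and 13.6 FPKM (change 2.06 ± 0.24, adjusted p = 0.00389). The falls were Ugt58Fa, given above, and Ugt (Uggt, -0.38 ± 0.07, adjusted p = 0.0222), which is a glycoprotein folding sensor and no detoxification enzyme. Keap1, the inhibitor of the oxidative stress factor CncC and named after its values were seen, rose from 14.9, 11.6 and 11.6 to 23.4, 23 and 26.1 FPKM (change 0.91 ± 0.13, adjusted p = 0.00744). The 4 higher calls were 10 without ph+E(z) replicate 1 and the 2 lower calls 1 without ph+E(z) replicate 2 or 3 or CtBP-added replicate 1 or 2. GstD9 and Ugt did not pass without ph+E(z) replicate 2 or 3 or CtBP-added replicate 1 or 2 (adjusted p from 0.0559 to 0.102).

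Of 86 cytochrome P450 genes 53 were tested, of which 7 rose, 7 fell and 39 were not called (median log2 change 0.17). Cyp4p3 rose from 9.84, 5.66 and 5.81 to 46.2, 50.6 and 32.9 FPKM (change 2.54 ± 0.25, adjusted p = 0.00272), its relative Cyp4p1 from 11.5, 5.61 and 6.58 to 24.2, 29.3 and 27.2 FPKM (change 1.76 ± 0.25, adjusted p = 0.0077) and Cyp317a1 from 3.33, 2.73 and 2.66 to 8.72, 8.46 and 6.52 FPKM (change 1.30 ± 0.17, adjusted p = 0.00553). Cyp6w1 fell from 24.9, 47.8 and 51.8 to 11.6, 11.8 and 7.85 FPKM (change -1.90 ± 0.29, adjusted p = 0.0108), Cyp4ac3 by 2.17 ± 0.41 (adjusted p = 0.0211), Cyp6a8 by 0.75 ± 0.17 (adjusted p = 0.0362) and Cyp6v1 by 0.59 ± 0.09 (adjusted p = 0.00864). Cyp6a2, inducible by xenobiotics, rose by 0.86 ± 0.19 (adjusted p = 0.0366). Cyp6w1, Cyp4ac3, Cyp6a8 and Cyp6a2 were named after their values were seen. The 7 higher calls were 3 without ph+E(z) replicate 2 or 3 or CtBP-added replicate 1 or 2, and the 7 lower calls were 0 without ph+E(z) replicate 2, 2 without CtBP-added replicate 1 or 2, and 3 with ph+E(z) replicate 3 left out. Cyp4ac3, Cyp6a2 and Cyp6a8 did not pass without ph+E(z) replicate 2 or 3 or CtBP-added replicate 1 or 2 (adjusted p from 0.0568 to 0.134). Cyp6v1 and Cyp6w1 missed the threshold without ph+E(z) replicate 2 (adjusted p from 0.0511 to 0.0543).

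The largest rises among named genes outside these pathways were scattered in function. Phk-3, which encodes a small pheromone-binding-like secreted protein, went from 1.99, 1.6 and 0.321 to 12.1, 12.2 and 11.8 FPKM (change 2.95 ± 0.40, adjusted p = 0.0067) and Epac, an exchange factor that responds to cyclic AMP, from 5.85, 2.19 and 2.19 to 22.9, 25.5 and 20.7 FPKM (change 2.71 ± 0.33, adjusted p = 0.00483). mfas, an adhesion protein gene of the fasciclin family, went from 129, 62.1 and 60.1 to 403, 363 and 268 FPKM (change 2.11 ± 0.31, adjusted p = 0.00853) and drongo (FBgn0020304, chromosome 2L, 833584 to 851071) from 159, 99.8 and 97.4 to 448, 439.9 and 410.3 FPKM (change 1.90 ± 0.18, adjusted p = 0.00272). In these 4 genes ph+E(z) replicate 1 was the highest of its group and still lay below every CtBP-added library. Sip1 (CG10939) rose from 2.76, 1.65 and 1.3 to 9.64, 9.6 and 9.02 FPKM (change 2.09 ± 0.23, adjusted p = 0.00343). Genes named after their values were seen include CG3074 (Swim), whose product binds Wingless, with a change of 2.40 ± 0.35 (adjusted p = 0.00846), CG14933 (3.40 ± 0.47, adjusted p = 0.00739), CG10433 (2.15 ± 0.34, adjusted p = 0.0111), CG9691 (1.80 ± 0.38, adjusted p = 0.0305), Rcd2 (1.80 ± 0.21, adjusted p = 0.00422), the growth factor gene Pvf2 (1.08 ± 0.12, adjusted p = 0.00373) and edl (1.20 ± 0.15, adjusted p = 0.0056), which encodes a modulator of Ets factors. CG10433 did not pass without ph+E(z) replicate 2 or CtBP-added replicate 1 (adjusted p from 0.0524 to 0.0562). CG9691 missed the threshold without ph+E(z) replicate 1, 2 or 3 or CtBP-added replicate 1 or 2 (adjusted p from 0.0691 to 0.101).

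Some known partners of CtBP and targets of its partners rose. Of 24 tested partner and corepressor genes 4 rose, 1 fell and 19 were not called (median log2 change -0.01), where 4.98% of all tested genes rose and 4.55% fell. h (Hairy), the repressor that recruits CtBP, went from 155, 170.2 and 167 to 235, 235 and 225 FPKM (change 0.50 ± 0.07, adjusted p = 0.0062) and bun, a TSC22 family gene, from 226, 266 and 283 to 439, 454 and 345 FPKM (change 0.67 ± 0.13, adjusted p = 0.0248), beside ush above. Rpd3, the histone deacetylase HDAC1, fell from 105, 101 and 95.1 to 73.1, 71.9 and 86 FPKM (change -0.39 ± 0.09, adjusted p = 0.0435). In the Enhancer of split complex, many but not all of whose genes are Notch targets, HLHmbeta rose from 4.53, 2.19 and 2.8 to 7.22, 7.39 and 5.65 FPKM (change 1.02 ± 0.25, adjusted p = 0.0491), malpha from 1.06, 2.04 and 2.04 to 7.83, 8.3 and 6.62 FPKM (change 1.90 ± 0.23, adjusted p = 0.00481) and m1, named after its values were seen, from 0.239, 0.692 and 0 to 3.07, 1.75 and 1.75 FPKM (change 1.79 ± 0.37, adjusted p = 0.0306). These 3 genes follow each other on chromosome 3R between 26005046 and 26016487. The Notch list itself had 1 of 19 tested genes higher, HLHmbeta, 0 lower and a median of 0.03, and HLHm3 did not pass (difference 0.89 ± 0.28, adjusted p = 0.097, named after its values were seen). The 4 higher partner calls were 1 without ph+E(z) replicate 2 or 3 or CtBP-added replicate 1 or 2. HLHmbeta did not pass without ph+E(z) replicate 2 or 3 or CtBP-added replicate 1, 2 or 3 (adjusted p from 0.0518 to 0.157). Rpd3 missed the threshold without ph+E(z) replicate 1, 2 or 3 or CtBP-added replicate 1 or 2 (adjusted p from 0.0839 to 0.157). bun and ush lost their calls without ph+E(z) replicate 2 or 3 or CtBP-added replicate 1 or 2 (adjusted p from 0.0553 to 0.12). m1 did not pass without ph+E(z) replicate 1 or 3 or CtBP-added replicate 1 or 2 (adjusted p from 0.0611 to 0.114).

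The Polycomb and trithorax groups themselves held few calls, as did all tested genes, of which 4.98% rose and 4.55% fell. Of 24 tested Polycomb group genes 0 rose, 1 fell and 23 were not called (median log2 change -0.08), and the members ran from -0.35 to 0.17. The one call was Caf1, a histone-binding subunit of complex 2 and of other complexes, from 162, 161 and 155 to 126, 129.9 and 137 FPKM (change -0.28 ± 0.06, adjusted p = 0.0397). Of 27 tested trithorax group genes 2 rose, 0 fell and 25 were not called (median log2 change -0.03). They were tna (tonalli), from 10.9, 10.5 and 11.6 to 21.4, 18.4 and 17.5 FPKM (change 0.77 ± 0.11, adjusted p = 0.00864), and ash2, a subunit of histone H3 lysine 4 methyltransferase complexes, from 54.7, 57 and 56.6 to 82.9, 78.4 and 69.3 FPKM (change 0.45 ± 0.08, adjusted p = 0.0216). The sign of the trithorax, CtBP partner and Wnt medians turned to higher with every library scaled to the same FPKM total, at 0.04, 0.06 and 0.004. Without CtBP-added replicate 3, 1 trithorax gene was called lower. Caf1 did not pass without ph+E(z) replicate 1, 2 or 3 or CtBP-added replicate 1 or 2 (adjusted p from 0.062 to 0.164). ash2 missed the threshold without ph+E(z) replicate 2 or 3 or CtBP-added replicate 1 or 2 (adjusted p from 0.0798 to 0.0908). tna lost its call without ph+E(z) replicate 2 (adjusted p = 0.0503).

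Pathways of secreted signals held a few calls in both directions, where 4.98% of all tested genes rose and 4.55% fell. In the Dpp, Activin and Hedgehog list 2 of 22 tested genes rose, 1 fell and the median was 0.05. daw, an Activin-like ligand gene, rose from 3.68, 1.87 and 1.92 to 10.8, 9.42 and 10.7 FPKM (change 1.90 ± 0.24, adjusted p = 0.00506), cv-2, a BMP-binding protein gene, from 14.9, 10.7 and 10.4 to 25.2, 24.1 and 38.3 FPKM (change 1.23 ± 0.21, adjusted p = 0.0161), and dpp, the BMP ligand, fell from 2.74, 2.2 and 2.88 to 0.557, 0.253 and 1.12 FPKM (change -1.51 ± 0.31, adjusted p = 0.0281). In the Wnt list 2 of 18 rose, 1 fell and the median was -0.07. Apc rose from 42.9, 47.1 and 47.2 to 85, 75.2 and 77.1 FPKM (change 0.78 ± 0.08, adjusted p = 0.00306) and the kinase gene sgg by 0.47 ± 0.07 (adjusted p = 0.0104), both part of the complex that degrades Armadillo, while the ligand gene Wnt5 fell by 0.57 ± 0.12 (adjusted p = 0.0311). In the ecdysone list 3 of 16 rose, 2 fell and the median was 0.09. The receptor gene EcR rose from 9.93, 8.54 and 8.82 to 19.1, 16.6 and 14.3 FPKM (change 0.83 ± 0.14, adjusted p = 0.0126) and the early gene Eip75B by 0.57 ± 0.11 (adjusted p = 0.0279), beside ImpL2 (adjusted p = 0.0346). Eip55E (Cth) and Eip71CD (MsrA), enzymes of sulphur amino acids, fell by 0.81 ± 0.11 and 0.60 ± 0.13 (adjusted p = 0.00634 and 0.0348).

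Several of these calls depended on single libraries. The Dpp list had 1 higher call without ph+E(z) replicate 2 or 3 or CtBP-added replicate 1 and 2 lower calls without ph+E(z) replicate 1, the Wnt list 1 higher call without ph+E(z) replicate 2 or CtBP-added replicate 1, and the ecdysone list 0 higher calls without ph+E(z) replicate 2 or 3 or CtBP-added replicate 1 and 1 without CtBP-added replicate 2. EcR, Eip71CD, Eip75B, ImpL2, Wnt5, cv-2, dpp and sgg did not pass without ph+E(z) replicate 2 or CtBP-added replicate 1 (adjusted p from 0.0521 to 0.12). EcR, Eip71CD, Eip75B, Wnt5 and dpp missed the threshold without CtBP-added replicate 2 (adjusted p from 0.0546 to 0.115). Eip71CD, ImpL2, Wnt5 and dpp lost their calls without ph+E(z) replicate 1 (adjusted p from 0.0551 to 0.0758). EcR, Eip71CD, Eip75B, ImpL2, Wnt5, cv-2 and dpp did not pass without ph+E(z) replicate 3 (adjusted p from 0.057 to 0.125).

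Cytoskeleton and adhesion genes contained more rises than falls. Of 19 tested actin and cytoskeleton genes 6 rose, 0 fell and 13 were not called (median log2 change 0.19). They include zip, the heavy chain of non-muscle myosin, from 145, 132 and 134 to 214, 218 and 219 FPKM (change 0.67 ± 0.06, adjusted p = 0.00276), the myosin VI gene jar from 41.9, 35.5 and 37.9 to 70.7, 71.1 and 66.5 FPKM (change 0.85 ± 0.09, adjusted p = 0.00303), and the actin-bundling gene Fim from 122, 104 and 99.9 to 221, 243 and 162 FPKM (change 0.92 ± 0.16, adjusted p = 0.0153). WASp (0.43, adjusted p = 0.016), the profilin gene chic (0.36, adjusted p = 0.0488) and Arp66B (Arp3, 0.33, adjusted p = 0.0376), which serve actin assembly, rose by less. Of 23 tested integrin and adhesion genes 3 rose and 1 fell, with a median of 0.17. scb, an integrin alpha chain gene, rose from 16.4, 11.4 and 10.6 to 44.6, 39.3 and 39.5 FPKM (change 1.67 ± 0.17, adjusted p = 0.00299), Nrg (neuroglian) from 4.96, 4.86 and 3.86 to 15.8, 13.4 and 16 FPKM (change 1.63 ± 0.14, adjusted p = 0.00194) and the talin gene rhea by 0.41 ± 0.08 (adjusted p = 0.0286), while mew, another integrin alpha chain gene, fell from 11, 11.8 and 10.8 to 7.09, 6.36 and 7.08 FPKM (change -0.67 ± 0.11, adjusted p = 0.0132). Among 16 tested axon guidance genes lea (robo2) rose from 0.413, 0.417 and 0.454 to 3.71, 3.62 and 2.51 FPKM (change 2.01 ± 0.21, adjusted p = 0.00306), and the semaphorin genes Sema-1a (-1.003, adjusted p = 0.0288) and Sema-2a (-0.64, adjusted p = 0.0181) fell, with a median of -0.04. lea passed the filter only through its CtBP-added libraries.

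In these 3 lists, the 6 cytoskeleton rises were 2 without ph+E(z) replicate 2 or 3 or CtBP-added replicate 1 or 2. The adhesion list had 6 rises without CtBP-added replicate 3 and 2 falls without ph+E(z) replicate 1, and the axon guidance list had 2 rises and 4 falls without CtBP-added replicate 3. Arp66B, Fim, Sema-1a, Sema-2a, WASp and mew did not pass without ph+E(z) replicate 2 or 3 or CtBP-added replicate 1 or 2 (adjusted p from 0.0521 to 0.152). chic and rhea missed the threshold without ph+E(z) replicate 1, 2 or 3 or CtBP-added replicate 1 or 2 (adjusted p from 0.0502 to 0.197).

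Some cell cycle genes fell by small amounts. Of 46 tested 1 rose, 8 fell and 37 did not pass, and the median was -0.29. Non-overlapping groups were found for 27 in the lower and 3 in the higher direction, against 16.4% and 15.4% of all tested genes. cdc2c (Cdk2), a kinase of S phase, went from 88.1, 103 and 108 to 58.4, 64.8 and 64.3 FPKM (change -0.66 ± 0.10, adjusted p = 0.00846) and CycE, its cyclin, from 66.6, 71.5 and 71.4 to 47.5, 46.8 and 57.1 FPKM (change -0.47 ± 0.10, adjusted p = 0.0284). CycB, the mitotic cyclin gene, went from 71.3, 72.1 and 71.3 to 43.1, 37.9 and 57.6 FPKM (change -0.65 ± 0.15, adjusted p = 0.0391). The replication genes Mcm7 (-0.44, adjusted p = 0.0222), Mcm2 (-0.38, adjusted p = 0.0452) and mus209 (PCNA, -0.33, adjusted p = 0.0318) fell by less. The count of 8 was 0 with ph+E(z) replicate 2 left out, 1 without ph+E(z) replicate 3 or CtBP-added replicate 1 or 2, and 20 without CtBP-added replicate 3. With every library scaled to the same FPKM total 5 fell, and the median was -0.21. CycB and mus209 did not pass without ph+E(z) replicate 1, 2 or 3 or CtBP-added replicate 1 or 2 (adjusted p from 0.0545 to 0.135). CycE, Mcm2 and Mcm7 missed the threshold without ph+E(z) replicate 2 or 3 or CtBP-added replicate 1 or 2 (adjusted p from 0.0767 to 0.169). cdc2c lost its call without ph+E(z) replicate 2 (adjusted p = 0.0502).

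Cell death genes gave 3 falls among 16 tested, 0 rises and a median of -0.15. th (Diap1), the main inhibitor of caspases, went from 237, 239 and 234 to 162, 176 and 169 FPKM (change -0.49 ± 0.06, adjusted p = 0.00531), the caspase gene dream (Strica) from 102, 98.1 and 98 to 66.9, 68.2 and 76.7 FPKM (change -0.49 ± 0.08, adjusted p = 0.0109) and the Bcl-2 family gene debcl from 42.1, 44 and 43.2 to 33.1, 32.2 and 34.7 FPKM (change -0.37 ± 0.07, adjusted p = 0.0254). The falls thus include an inhibitor and promoters of cell death. The count of 3 was 1 without ph+E(z) replicate 2 or 3 or CtBP-added replicate 1 or 2, and 1 gene was called higher without ph+E(z) replicate 1 and 2 genes without CtBP-added replicate 3. debcl and dream did not pass without ph+E(z) replicate 2 or 3 or CtBP-added replicate 1 or 2 (adjusted p from 0.051 to 0.129).

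Ribosomal protein genes lay slightly lower with few calls. Of 81 tested cytosolic members 0 rose and 2 fell, and the median was -0.21. Non-overlapping groups in the lower direction were found for 41 of the 81, against 16.4% of all tested genes. The share of cytosolic ribosomal protein genes in the summed FPKM was 29.39% to 30.72% in the ph+E(z) libraries and 26.66% to 28.99% in the CtBP-added libraries. The calls, RpS14b (-0.39 ± 0.09, adjusted p = 0.0413) and RpS15Ab (-0.32 ± 0.08, adjusted p = 0.0453), belong to genes with near-identical copies, and 0 were called with every library scaled to the same FPKM total, where the median was -0.14; with quantile normalization it was -0.07. The 2 calls were 15 without CtBP-added replicate 3, 0 without any ph+E(z) library or CtBP-added replicate 2, and 1 without CtBP-added replicate 1. Of 71 mitochondrial ribosomal protein genes 2 fell, mRpL55 (-0.59 ± 0.11, adjusted p = 0.0175) and mRpS18A (-0.51 ± 0.13, adjusted p = 0.0488), and 0 rose, with a median of -0.16. Those 2 calls were 0 without ph+E(z) replicate 2 or CtBP-added replicate 1 and 1 without ph+E(z) replicate 1 or 3 or CtBP-added replicate 2. RpS14b did not pass without ph+E(z) replicate 1, 2 or 3 or CtBP-added replicate 2 or 3 (adjusted p from 0.0576 to 0.156). RpS15Ab and mRpS18A missed the threshold without ph+E(z) replicate 1, 2 or 3 or CtBP-added replicate 1, 2 or 3 (adjusted p from 0.0618 to 0.181). mRpL55 lost its call without ph+E(z) replicate 2 or CtBP-added replicate 1 (adjusted p from 0.0654 to 0.0869).

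None of 30 proteasome genes, 18 small RNA genes, 20 cytosolic heat shock genes and 14 germline markers was called by limma, where 9.53% of all tested genes were. At an unadjusted p under 0.05 these lists held 1, 4, 2 and 5 genes, and all tested genes 2212. Their medians were -0.11, 0.001, 0.12 and 0.08. Leaving out CtBP-added replicate 3 gave 1 higher and 1 lower call among the small RNA genes, 2 lower among the heat shock genes, and 1 higher and 2 lower among the germline markers. Of 8 tested imaginal disc growth factor and chitinase-like genes Chit (Idgf6) fell, from 367, 526 and 578 to 300.2, 277 and 209 FPKM (change -0.89 ± 0.20, adjusted p = 0.0378), with a median of 0.17. Chit did not pass without ph+E(z) replicate 2 or 3 or CtBP-added replicate 1, 2 or 3 (adjusted p from 0.0627 to 0.136). Among 10 reference genes the calls were Gapdh1 and Gapdh2, both higher, with a median of -0.02 that became 0.18 with quantile normalization. Without ph+E(z) replicate 2 or 3 or CtBP-added replicate 1 or 2 Gapdh1 alone was called among them (Gapdh2, adjusted p = 0.0483 with all 6 libraries).

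**Figure D5:**
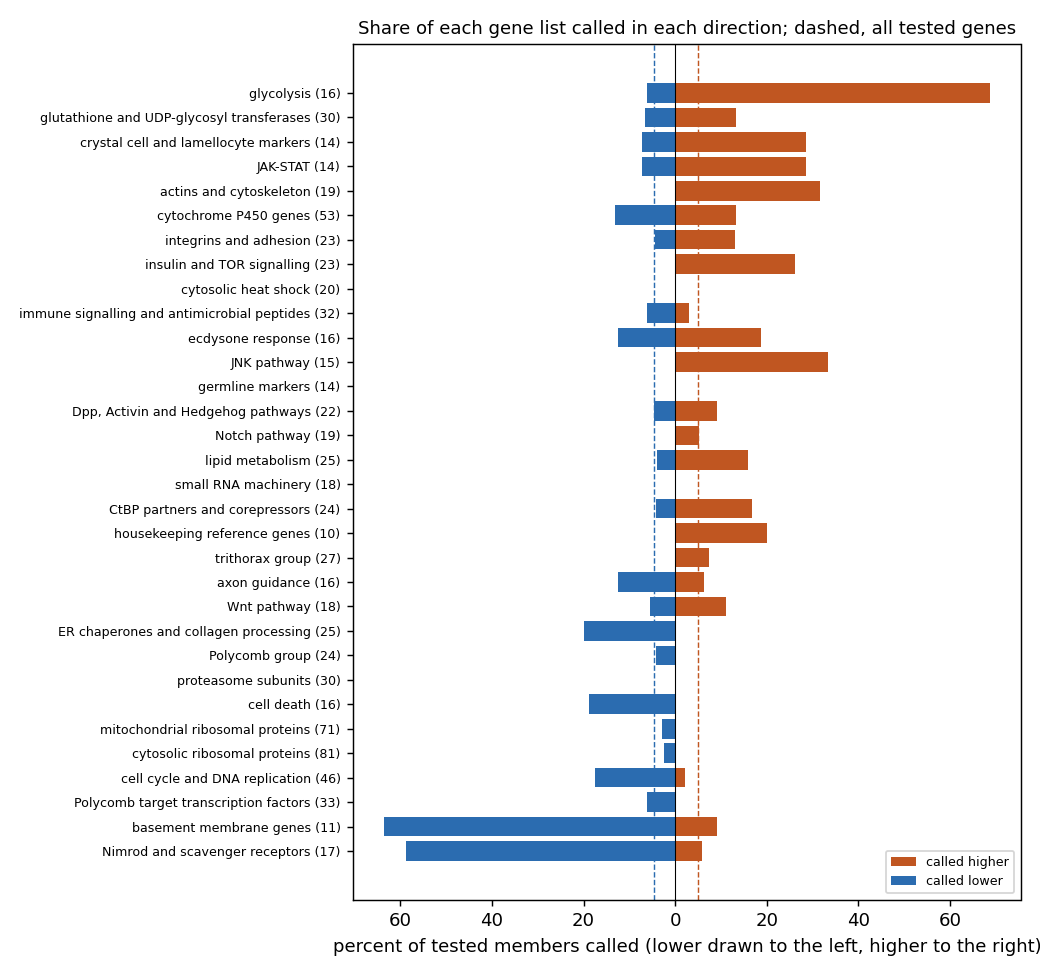
Share of the tested members of each gene list that were called higher (orange, to the right) or lower (blue, to the left), in percent, for the 32 lists with at least 10 tested members, given in brackets, ordered by median log2 change. Dashed lines mark the shares over all 8596 genes, 4.98% higher and 4.55% lower; glycolysis extends furthest to the right, and the basement membrane and Nimrod lists extend furthest to the left.

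Markers of tissues were checked against the label of the line. Of 8 plasmatocyte markers, Hml, Pxn, nimC1, eater, He and Sr-CI fell and crq and srp did not pass, as given above, and all 8 were present in every library of the 6. Markers of other tissues were present in part. Of 18 germline markers 14 passed the filter, with a summed level of 286 to 307 FPKM in the ph+E(z) libraries and 338 to 361 FPKM in the CtBP-added libraries, and the highest member was the Argonaute gene AGO3. Muscle markers summed to between 715 and 723 FPKM and between 813 and 883 FPKM, with Tm1 the highest member, and gut and trachea markers to between 1666 and 1756 FPKM and between 1761 and 2217 FPKM, with the proton pump gene Vha16 the highest. Neuron markers summed to between 158 and 195 FPKM and between 184 and 189 FPKM, and fat body markers to at most 2.13 and 2.49 FPKM. Listed at 0 in all 6 libraries were 4 neuron markers (ase, Snap25, VAChT and VGlut), 2 muscle markers (Tm2 and sls), 2 fat body markers (Lsp1alpha and Lsp1gamma) and 2 gut markers (betaTry and lambdaTry). Their part in the results was not tested. The cytosolic ribosomal protein gene RpL15 was also listed at 0 in every library, so a listed 0 need not mean that an RNA was absent. Several defining genes were low. The muscle myosin gene Mhc lay at 0.174, 0.185 and 0.0674 and 0.258, 0.292 and 0.342 FPKM, the germline gene vas at 0.108, 0.314 and 0.105 and 0.0536, 0.283 and 0.282 FPKM and the fat body gene Lsp2 at 0.0536, 0.0518 and 0 and 0, 0 and 0.168 FPKM. Of 22 neuron markers 8 passed the filter, with 1 fall, nrv3 (-1.13 ± 0.23, adjusted p = 0.0282), and the active zone gene brp lay at 8.56, 9.72 and 9.78 and 9.54, 9.82 and 14.8 FPKM. Of 18 muscle markers 7 passed the filter, with 1 rise, the widely used tropomyosin gene Tm1 (0.29 ± 0.07, adjusted p = 0.044). Of 11 fat body markers 1 passed and was not called, and of 12 gut and trachea markers 5 passed, with 1 rise, dys (dysfusion), from 114, 105 and 107 to 173, 167 and 164 FPKM (change 0.62 ± 0.07, adjusted p = 0.00306). The neuron call was 0, and the muscle call 0, without ph+E(z) replicate 2 or 3 or CtBP-added replicate 1 or 2, and 2 muscle markers were called without CtBP-added replicate 3. Tm1 did not pass without ph+E(z) replicate 1, 2 or 3 or CtBP-added replicate 1 or 2 (adjusted p from 0.0598 to 0.182). nrv3 missed the threshold without ph+E(z) replicate 2 or 3 or CtBP-added replicate 1 or 2 (adjusted p from 0.0933 to 0.109).

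The calls were spread over the genome and over expression levels. Per chromosome arm 4.36% to 5.38% of tested genes rose and 3.77% to 5.3% fell, apart from the small chromosome 4, where 0 of 57 tested genes was called. Of the 2149 genes with the lowest mean levels, up to 7.45 FPKM, 4.09% rose and 3.44% fell, and of the 2149 with the highest, from 53.6 FPKM, 6.93% rose and 6.7% fell. Besides the Nimrod cluster, the runs of at least 4 neighbours were G-ialpha65A, CR32385, mp and form3, all higher, on 3L between 6972750 and 7123297, and CG31051, Ppn, CG12413 and fkh, all lower, on 3R between 28519548 and 28585264.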

How the data were processed

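Sequencing libraries of Kc167 cell RNA numbered 9, with 3 per group, and the 6 libraries of the ph+E(z) and ph+E(z)+CtBP groups were compared. The authors deposited FPKM values per gene and library, and a q-value for the same comparison. Per the submitters' processing notes, the tools were TopHat2 2.1.0, Bowtie2 2.2.6, Cufflinks, Cuffdiff and R 3.2.3, and the build was dm6. Library selection, strandedness, read totals and the scaling of FPKM between libraries were not given in the sources used here. Precision is shown only by the spread between libraries.

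Log2 values were computed from the deposited FPKM as log2(FPKM + 0.5), for genes that reached 0.5 FPKM in 3 or more of the 6, and tested with limma 3.58.1 in R 4.3.3 with a mean-variance trend. p values were adjusted by Benjamini-Hochberg over 8596 genes, with a threshold of 0.05, and the test was two-sided. The pseudocount makes changes of low genes smaller than their ratios. The fit was tested on simulated data. The alternatives, 19 in number, varied the pseudocount, filter, scaling and model or left out a library.

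The comparison and the 41 gene lists were chosen with earlier results of these data known. The gene l(2)efl was taken out of the secreted hemocyte list after its values were seen, since it had been entered by mistake. Genes named are the targets, the HOX genes, the 15 called genes with the largest rises and falls that have separate groups and a name beyond a CG or CR number, the 4 members of each list that had the smallest adjusted p, and every called member of lists with 8 or fewer calls. Others are marked as named after their values were seen. Symbols are those of the deposited table, of which 5 were damaged or empty, with newer names in brackets. Coordinates are those of the dm6 annotation, matched by FlyBase identifier for 13462 of 14797 genes. Counts per chromosome arm and runs of neighbours cover matched genes. Sequences and promoter motifs were not analysed here.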

Additional observations from a re-analysis of the deposited data

How the results depend on the processing

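Directions held for every called gene named in the report under all 19 alternatives, while many calls did not. Genes called higher and lower numbered 1173 and 1220 with array weights, 178 and 165 in a fit of all 9 libraries, which adds the spread of the control libraries, 214 and 160 with the replicate number as a block, and 174 and 119 with ph+E(z) replicates 2 and 3 averaged and counted as 1 library, an alternative added after the data were seen because these libraries were closest. With each library left out in turn they ranged from 152 to 537 higher and from 106 to 534 lower. The counts stayed within 1.5 times with the other alternatives. The CtBP call held under every one. Same-numbered libraries showed no shared deviation over all genes, with correlations of -0.0636, -0.0962 and -0.0557. These values cannot show whether such libraries were handled together, and the labels do not say.

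Of the 179 called genes named, 99 kept the call in the fit of all 9 libraries, 106 with the replicate block, 90 with the averaged pair, 79 to 165 with a library left out, and 146 or more otherwise. Differences that did not pass turned sign as follows. E(z) was 0.0546 with every library scaled to the same FPKM total, 0.0046 with quantile normalization and 0.10 with array weights. srp was 0.0074 with that scaling, and crq 0.0686, with 0.0016 by median ratio, 0.10 with array weights and 0.0066 with the averaged pair. With array weights ph-p was -0.0429 and GATAd -0.0568. With a library left out the differences ran from -0.116 to 0.142 for E(z), -0.0438 to 0.1987 for ph-p, -0.023 to 0.0603 for GATAd, -0.0317 to 0.2769 for lz, -0.1401 to 0.2128 for crq, -0.1299 to 0.2525 for drpr and -0.0316 to 0.0635 for pes. The cause was not tested.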
